A study of Mus musculus with 15 samples.

Results

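The 73 genes described here encode the receptors for glutamate, GABA, glycine and acetylcholine in the mouse. They were picked by matching gene symbols, from the 23329 genes counted in each tumor: 4 AMPA, 5 kainate, 7 NMDA, 2 delta and 8 metabotropic glutamate receptor genes, 19 GABA-A and 2 GABA-B receptor genes, 5 glycine receptor genes, and 16 nicotinic and 5 muscarinic acetylcholine receptor genes. RNA sequencing had been carried out on 15 tumors from different mice, to compare tumors with and without caspase-2, an initiator caspase encoded by *Casp2*, in a pair of Myc-driven cancer models. The lymphomas were cervical lymph node tumors of *EμMyc* mice on C57BL/6, in which an immunoglobulin heavy chain enhancer drives *Myc* in B cells: 4 had intact *Casp2* (mice 614, 743b, 829 and 835, onset at 13, 13, 13 and 19 weeks) and 3 were *EμMyc/Casp2*-/- (mice 215, 239 and 245, onset at 9, 8 and 12 weeks). The neuroblastomas were paraspinal thoracic tumors of *Th-MYCN* mice on a mixed Sv129/C57BL6 background, in which *MYCN* is expressed from the promoter of tyrosine hydroxylase, in precursors of the sympathetic lineage: 4 had intact *Casp2* (mice 175, 235, 332 and 391, onset at 21, 13, 10 and 15 weeks) and 4 were *Th-MYCN/Casp2*-/- (mice 118, 144, 176 and 180, onset at 15, 18, 24 and 15 weeks). Values are listed in this order of mice throughout. Strain, tissue and tumor type differ together and cannot be told apart, nor can genotype and age at onset in the lymphomas, where the onset ages of the genotypes did not overlap.

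Levels are given as CPM, the read count of a gene scaled to the reads assigned to genes in its library and normalized between libraries by the trimmed mean of M-values (TMM). The tumors held 4940464 to 17638029 assigned reads on the strand counted, with the shallowest library in *EμMyc/Casp2*-/- tumor 215, and a floor of 3 reads corresponded to 0.173 to 0.586 CPM. The labels were checked first. *Casp2* was at 167, 125, 203 and 139 CPM in *EμMyc* tumors against 58.0, 51.9 and 76.1 in *EμMyc/Casp2*-/- tumors, and at 125, 93.2, 76.0 and 106 CPM in *Th-MYCN* tumors against 80.1, 57.7, 39.6 and 54.5 in *Th-MYCN/Casp2*-/- tumors. The lymphoma genotypes did not overlap and the neuroblastoma genotypes overlapped at tumors 332 and 118 (log2 fold changes -1.35 ± 0.25 and -0.79 ± 0.23, SE, with adjusted p = 0.0536 and 0.327 by the edgeR quasi-likelihood test). *Mycn* was at 230 to 430 CPM in neuroblastomas and at most 2.15 in lymphomas, and *Myc* at 497 to 1912 CPM in lymphomas and at most 15.6 in neuroblastomas. The summed CPM of 6 B cell markers was 1803 to 4305 in lymphomas and 5.59 to 21.2 in neuroblastomas. That of 7 sympathetic neuroblast markers was 2413 to 4535 in neuroblastomas and 1.89 to 16.8 in lymphomas, so each tumor carried the markers of its labelled tissue.

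Ionotropic receptors are channels built from several subunits around a pore that opens when transmitter binds, and metabotropic receptors signal through G proteins. AMPA, kainate and NMDA receptors carry fast excitation by glutamate, and an NMDA receptor needs the Grin1 subunit together with Grin2 or Grin3 subunits. GABA-A and glycine receptors are chloride channels. GABA-A receptors are typically assembled from alpha and beta subunits with a further subunit, and glycine receptors from alpha subunits with or without the beta subunit, whereas GABA-B receptors work as a dimer of Gabbr1 and Gabbr2. Nicotinic receptors of sympathetic ganglion cells, the normal relatives of neuroblastoma, are built mainly from the alpha3 and beta4 subunits, with alpha5, alpha7 and beta2 as further partners, whereas the muscle receptor uses alpha1, beta1, delta and epsilon or gamma.

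The question of the first comparison was how tumors of neural and of B cell origin differ in these genes. Receptor transcripts were abundant in the neuroblastomas and sparse in the lymphomas. The number of the 73 genes with at least 3 reads was 37 to 51 in the neuroblastomas (median 46.5, n = 8) and 12 to 19 in the lymphomas (median 15, n = 7), without overlap. The *Th-MYCN* tumors had 49, 47, 48 and 51 such genes, and there were 41, 46, 37 and 40 in *Th-MYCN/Casp2*-/- tumors, without overlap, and the latter libraries held 10353787 to 15681695 reads against 13862487 to 17638029. With 10 reads required, the counts of 33, 39, 39 and 38 and of 34, 34, 29 and 29 genes overlapped. Their summed level was 1154 to 1744 CPM in neuroblastomas and 34.0 to 118 CPM in lymphomas. In bulk tumor tissue, fewer cells of a type and less RNA per cell cannot be told apart. The filter on low counts, more than 1 CPM in at least 3 tumors, left 37 of the 73 genes for testing among 14880. Of these 37 genes, 29 passed through the neuroblastomas alone, 3 through the lymphomas alone and 5 in both, so most of those tested were bound to differ between tumor types. Their counts, and the fold changes and adjusted p of single genes between tumor types, are given as a description.

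Between *EμMyc* and *Th-MYCN* tumors, 32 of the 73 genes were called lower in the lymphomas and 1 was called higher (edgeR quasi-likelihood test, adjusted p under 0.05 and a more than 2-fold change). Among all 14880 genes tested, 27.8% were called lower and 18.3% higher. Between the *Casp2*-/- groups of either tumor type, 29 receptor genes were called lower and 2 higher, against 26.6% and 19.7% of all genes. The groups did not overlap, with the lymphomas below, for 30 receptor genes in the first comparison (32.9% of all genes) and 28 in the second (31.2% of all genes). The median log2 fold change of the 37 receptor genes tested was -6.01 and -7.22, and -4.83 and -4.33 when genes at 0 reads in one group were set to the floor, beside medians of -0.04 and -0.05 over all genes tested. By family, the genes called lower in *EμMyc* than in *Th-MYCN* tumors included 3 of 4 AMPA, 5 of 5 kainate, 1 of 7 NMDA, 3 of 8 metabotropic glutamate, 8 of 19 GABA-A, 2 of 2 GABA-B, 2 of 5 glycine, 6 of 16 nicotinic and 0 of 5 muscarinic receptor genes. The heat-map of receptor genes by tumor shows these blocks.

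**Figure D1:**
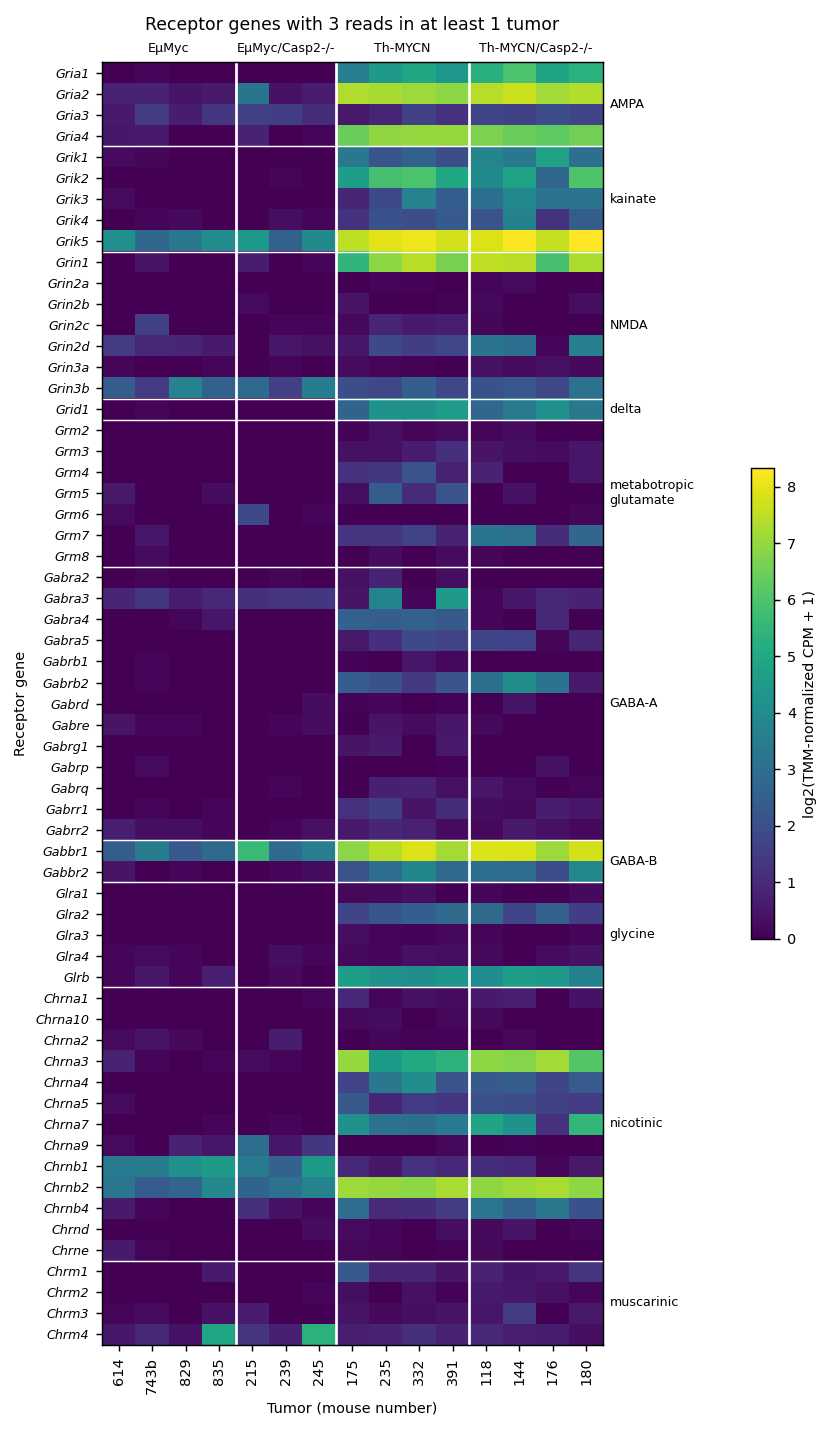
Levels of the receptor genes described here that had at least 3 reads in 1 tumor or more, as log2(CPM + 1) by color, with tumors in columns by group and genes in rows by family. Most of the bright cells lie in the columns of the 8 neuroblastomas, and the brighter cells of the lymphoma columns are those of *Chrnb1*, *Chrnb2*, *Grik5*, *Gabbr1* and *Grin3b*, of *Chrm4* in tumors 835 and 245, and of *Gria2* and *Chrna9* in tumor 215.

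To rank the receptor genes, CPM values were divided by the length of annotated exon. On this per-kilobase scale *Grik5*, the KA2 kainate subunit, led all receptor genes in the neuroblastomas at 65.5 ± 13.4 CPM per kb (SD, n = 8). It was followed by *Grin1* at 28.8 ± 12.8 and *Gabbr1* at 28.0 ± 7.25, which lay within each other's spread. *Gria4* at 16.2 ± 3.23, *Chrnb2* at 16.1 ± 1.63, *Chrna3* at 15.8 ± 9.13 and *Gria2* at 14.9 ± 2.43 formed a further group of neighbours within 1 SD. *Chrna7* stood at 8.03 ± 6.66 and *Glrb* at 5.95 ± 1.38. *Gria1*, *Grik2*, *Grid1* and *Grik1* lay between 2.25 and 5.41 CPM per kb, and the other receptor genes described here were at most 1.36.

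**Figure D2:**
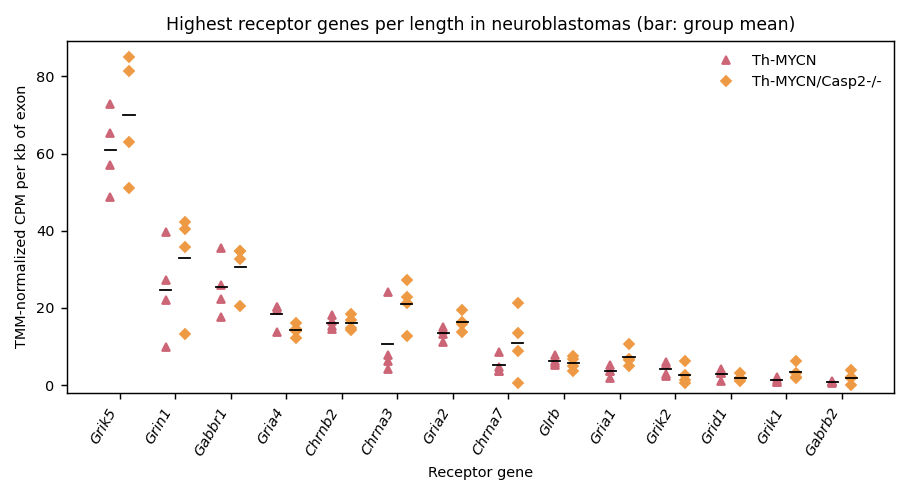
Level per kilobase of exon (CPM per kb) of the highest receptor genes described here in the 8 neuroblastomas, with 1 point per tumor by genotype and a bar at each group mean. *Grik5* lies above the other genes, and the points of *Chrna3*, *Chrna7* and *Grin1* spread more widely than those of *Chrnb2*.

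Among AMPA receptor genes, the neuroblastomas carried *Gria2*, whose edited product keeps AMPA receptors impermeable to calcium, and *Gria4*, with less *Gria1* and almost no *Gria3*. *Gria2* was at 159, 150, 138 and 118 CPM in *Th-MYCN* and 172, 203, 143 and 165 CPM in *Th-MYCN/Casp2*-/- tumors. In the lymphomas it was at 0.39 to 0.79 CPM in *EμMyc* tumors and at 8.39, 0.33 and 0.61 CPM in *EμMyc/Casp2*-/- tumors, with tumor 215 above the rest. *Gria4* was at 85.9, 122, 127 and 127 CPM and at 102, 87.5, 76.2 and 92.2 CPM in the neuroblastoma groups and at most 0.78 CPM in any lymphoma. The log2 fold changes of *EμMyc* against *Th-MYCN* tumors were -7.81 ± 0.69 for *Gria2* and -8.84 ± 0.69 for *Gria4* (SE; edgeR quasi-likelihood adjusted p = 1.97e-07 and 1.04e-08). Both genes passed the filter through the neuroblastomas alone, so these values are a description. *Gria1* had 1 read in the 4 *EμMyc* tumors together and 0 in the 3 *EμMyc/Casp2*-/- tumors. Its mean level was 975 times that of *EμMyc* in *Th-MYCN* tumors, with a 95% interval of 175 to 38494 for counting error only, and at least 110-fold higher in *Th-MYCN/Casp2*-/- than in *EμMyc/Casp2*-/- tumors. *Gria3* was the AMPA gene that was not called between tumor types. It was at 0.52 to 1.95 CPM in lymphomas and 0.49 to 2.89 CPM in neuroblastomas, with overlap between *EμMyc* and *Th-MYCN* tumors and none between the *Casp2*-/- groups, where the lymphomas lay below (log2 fold change -0.52 ± 0.57, SE, edgeR quasi-likelihood adjusted p = 0.455). Per kilobase, *Gria2* and *Gria4* together made up most of the AMPA transcripts, with means over the 8 neuroblastomas of 40.5% and 44.4%.

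Kainate receptor transcripts were dominated by *Grik5*, which needs a partner of the Grik1 to Grik3 kind to form a channel. *Grik5* was at 183, 246, 274 and 214 CPM in *Th-MYCN* and 237, 306, 192 and 320 CPM in *Th-MYCN/Casp2*-/- tumors, the tightest of the kainate genes at 1.74-fold from lowest to highest. Its share of kainate transcripts per kilobase was 86.4% to 92.2%, and its level per kilobase was 6.56 to 13.8 times the sum of *Grik1* to *Grik3*. *Grik2* was at 24.5, 57.6, 61.7 and 30.5 CPM and at 14.8, 27.0, 5.68 and 64.1 CPM, an 11.3-fold range with the genotypes overlapping. *Grik1*, *Grik3* and *Grik4* were at 2.90 to 26.8, 0.85 to 13.9 and 1.34 to 11.7 CPM. *Grik5* was also the highest glutamate receptor gene per kilobase in lymphomas (mean 3.31 CPM per kb), at 17.1, 5.90, 8.81 and 15.1 CPM and at 20.5, 5.004 and 14.7 CPM, yet every lymphoma lay below every neuroblastoma (log2 fold change -4.29 ± 0.36, SE, edgeR quasi-likelihood adjusted p = 3.19e-07). *Grik2* had 0 reads in the 4 *EμMyc* tumors and was at least 162.5-fold higher in *Th-MYCN* tumors.

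The NMDA family was carried by *Grin1*, the obligatory subunit, at 42.8, 119, 174 and 96.2 CPM in *Th-MYCN* and 185, 177, 57.2 and 156 CPM in *Th-MYCN/Casp2*-/- tumors. The lowest values belonged to tumors 175 and 176, the tumors with the latest onset (21 and 24 weeks). *Grin1* had 4 reads in each lymphoma group (log2 fold change of *EμMyc* against *Th-MYCN* -10.10 ± 1.27, SE, edgeR quasi-likelihood adjusted p = 5.60e-08). As *Grin1* passed the filter through the neuroblastomas alone, this is a description. Its partners were scarce. *Grin2d* was at 0.43, 2.61, 1.90 and 2.41 CPM and at 8.28, 7.32, 0.10 and 10.8 CPM, *Grin2a* and *Grin2b* were at most 0.37 CPM, and *Grin2c* at most 0.80 CPM in neuroblastomas. Per kilobase, *Grin1* exceeded the sum of the *Grin2* genes by 20.3-fold to 836-fold across the 8 tumors. The highest ratio, in tumor 176, rests on 1 read of *Grin2d* and 0 of the other *Grin2* genes, below the floor of 3 reads. The next highest was 95.4-fold, in tumor 332. When reads of either strand were counted together, 62.7% of the reads that the strands held separately were kept for *Grin1* and 43.0% for *Grin3b*, since reads that lie on overlapping genes are then set aside, whereas 99.9% or more were kept for *Grin2d*, *Grik5* and *Gabbr1*. For *Grin3b* the strands also differed 3.11-fold, so its values of 1.71 to 12.0 CPM in lymphomas and 2.39 to 7.71 CPM in neuroblastomas are uncertain. *Grid1*, a delta receptor gene, was called lower in *EμMyc* tumors, from 5.49, 18.3, 18.3 and 23.5 CPM in *Th-MYCN* tumors to 1 read in 4 *EμMyc* tumors.

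The start of *Grin1* is shown because its upstream window is one of 2 among the 52 receptor genes with a RefSeq promoter window that hold the letters CACGTG, the canonical E-box recognized by Myc family proteins, and holds it at 2 places. The other was *Chrna7*. This 6-letter palindrome was present in the 250 bases before the start of 6.05% of 27025 genes (1 window per gene, both strands) and of 3.85% of the 52 receptor genes. A match describes the letters and not a bound site. The 250 bases before the *Grin1* start, at chr2:25319188-25319437 (GRCm38.p6, minus strand), overlap no annotated exon and read as follows, 5′ to 3′ on the strand of the gene and with the E-boxes in capitals.
Grin1 upstream: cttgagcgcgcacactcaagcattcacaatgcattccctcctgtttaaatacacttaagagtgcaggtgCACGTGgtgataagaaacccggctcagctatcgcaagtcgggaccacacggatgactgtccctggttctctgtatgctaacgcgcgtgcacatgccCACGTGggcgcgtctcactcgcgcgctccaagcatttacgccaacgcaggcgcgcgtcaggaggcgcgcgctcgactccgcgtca

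The E-boxes begin 181 and 85 bases before the start. *Grin1* itself spans chromosome 2, 25291181 to 25319187, in GENCODE M21 on the same build.

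Metabotropic glutamate receptor genes were low throughout. *Grm7*, a presynaptic receptor, reached 8.35 CPM and *Grm5*, which couples to phospholipase C, reached 4.43 CPM in single neuroblastomas, and the other 6 were at most 3.58 CPM in any tumor. *Grm6*, known from retinal bipolar cells, reached 2.54 CPM in tumor 215, an *EμMyc/Casp2*-/- lymphoma, with the other 14 tumors at 0.17 CPM or less.

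Among the GABA-A receptor alpha subunit genes, *Gabra3*, *Gabra4* and *Gabra5* were each at most 21.8 CPM in every neuroblastoma, *Gabra2* was at most 0.73 CPM, and *Gabra6* had no read. *Gabra5* was at 0.49, 1.23, 2.60 and 2.28 CPM in *Th-MYCN* and 2.30, 2.18, 0.10 and 0.81 CPM in *Th-MYCN/Casp2*-/- tumors, with the genotypes overlapping. The beta subunit gene *Gabrb2* was at 4.33, 3.19, 1.67 and 3.58 CPM and at 7.49, 15.9, 8.09 and 0.49 CPM, a 32.7-fold range with tumor 144 the highest and tumor 180 the lowest.

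**Figure D3:**
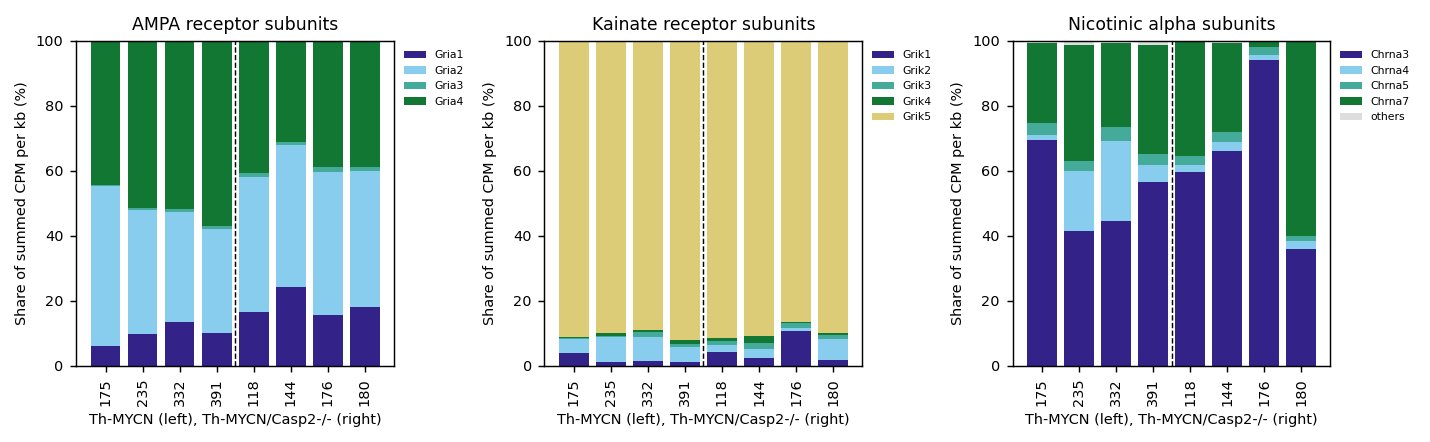
Share of each subunit gene in the summed level per kilobase of its group (percent), for AMPA, kainate and nicotinic alpha subunits, with 1 bar per neuroblastoma and the genotypes on either side of the dashed line. *Grik5* fills 86.4% to 92.2% of every kainate bar, whereas the share of *Chrna3* among nicotinic alpha subunits runs from 35.8% to 93.9%.

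Neighbouring GABA-A receptor genes had unequal levels. On chromosome 5, the annotated start of *Gabra4* overlaps that of *Gabrb1* on the other strand by 196 bases. In *Th-MYCN* tumors the mean level of *Gabra4* was 1.09 ± 0.086 CPM per kb and that of *Gabrb1* 0.011 ± 0.013 CPM per kb (SD, n = 4). The closest neighbours *Gabra2* and *Gabrg1* were at 0.055 ± 0.052 and 0.072 ± 0.050 CPM per kb (SD, n = 4).

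Of the GABA-B receptor genes, *Gabbr1* was at 117, 170.5, 235 and 148 CPM in *Th-MYCN* and 230, 229, 136 and 215 CPM in *Th-MYCN/Casp2*-/- tumors, and *Gabbr2*, the subunit that couples to the G protein, at 3.42, 7.11, 13.0 and 6.23 CPM and at 7.20, 6.81, 2.89 and 13.8 CPM. *Gabbr1* exceeded *Gabbr2* per kilobase by 13.6-fold to 41.0-fold in every neuroblastoma. Glycine receptor genes were represented by the beta subunit *Glrb*, which also anchors the receptor to gephyrin, at 11.6 to 24.5 CPM, and by the fetal alpha subunit *Glra2* at 1.95 to 6.33 CPM. *Glra2* had 0 reads in all 7 lymphomas and was at least 15.7-fold higher in *Th-MYCN* than in *EμMyc* tumors. *Glra1*, *Glra3* and *Glra4* stayed under 0.4 CPM in every tumor.

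The neuronal nicotinic genes of the neuroblastomas were *Chrnb2*, *Chrna3* and *Chrna7*. *Chrnb2* was the steadiest receptor gene among those with at least 3 reads in every neuroblastoma, at 138, 128, 121 and 152 CPM and at 123, 140, 153 and 119 CPM, a 1.29-fold range. In lymphomas it was at 8.65, 4.19, 5.59 and 14.01 CPM and at 5.47, 7.59 and 12.3 CPM, below every neuroblastoma (log2 fold change of *EμMyc* against *Th-MYCN* -4.06 ± 0.30, SE, edgeR quasi-likelihood adjusted p = 6.53e-08). *Chrna3* was at 127, 22.1, 32.2 and 40.9 CPM in *Th-MYCN* and 120, 112, 144 and 67.1 CPM in *Th-MYCN/Casp2*-/- tumors, so that *Th-MYCN* tumor 175 lay among the *Casp2*-/- tumors and the other 3 lay below them. *Chrnb4*, its partner in ganglion receptors, had almost the same order of tumors at fewer reads, with 175 and 118 exchanged: 6.84, 1.02, 1.10 and 1.73 CPM against 8.56, 5.07, 9.15 and 3.33 CPM. *Chrna5* was at 4.09, 0.87, 1.73 and 1.42 CPM and at 3.10, 2.95, 2.02 and 1.79 CPM. The genotypes overlapped for all 3 genes, and none was called (log2 fold changes of *Casp2*-/- against intact *Casp2* 0.99 ± 0.52 for *Chrna3* and 1.28 ± 0.81 for *Chrnb4*, SE, edgeR quasi-likelihood adjusted p = 0.812 and 0.898). *Chrna7*, which forms receptors of its own kind, was at 17.7, 7.55, 7.38 and 9.56 CPM and at 27.8, 18.2, 1.25 and 44.2 CPM, the widest spread (35.3-fold) of the receptor genes with at least 3 reads in every neuroblastoma. *Chrna4* was at 2.20, 8.85, 15.98 and 3.39 CPM and at 3.96, 4.49, 2.31 and 4.30 CPM and had 0 reads in all lymphomas.

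*Chrna5*, *Chrna3* and *Chrnb4* form a cluster on chromosome 9 (54980880 to 55048779), with gaps of 2331 and 1591 bases between the genes. The upstream windows of *Chrna3* and of the outer *Chrna5* start are shown because neither window overlaps an annotated exon. The *Chrna3* window holds the GC box GGGCGG, read on the other strand as CCGCCC, 13 bases before the start, and this *Chrna5* window holds neither that nor the E-box. A second *Chrna5* start in RefSeq has the window chr9:54981238-54981487, which overlaps an annotated exon and holds 4 GC boxes, at 127, 92, 71 and 48 bases before that start. The GC box was found in 32.9% of 27025 windows and in 26 of the 52 receptor gene windows (50%). The cAMP response element TGACGTCA was found in 1.62% of all windows and in 0 of the 52. The *Chrna3* window is chr9:55026563-55026812 on the minus strand and the *Chrna5* window chr9:54980630-54980879 on the plus strand (RefSeq, GRCm38.p6, 5′ to 3′ on the strand of the gene, GC box in capitals).
Chrna3 upstream: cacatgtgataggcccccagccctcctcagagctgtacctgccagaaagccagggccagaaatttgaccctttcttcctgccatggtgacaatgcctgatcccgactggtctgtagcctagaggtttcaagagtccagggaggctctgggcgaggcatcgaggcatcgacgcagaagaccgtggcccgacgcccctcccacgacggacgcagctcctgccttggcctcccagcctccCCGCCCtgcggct
Chrna5 upstream: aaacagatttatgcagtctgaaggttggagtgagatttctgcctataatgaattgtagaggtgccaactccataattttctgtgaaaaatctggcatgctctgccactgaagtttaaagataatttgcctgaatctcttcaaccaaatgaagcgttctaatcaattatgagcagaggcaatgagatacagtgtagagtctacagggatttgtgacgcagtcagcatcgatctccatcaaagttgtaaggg

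In the lymphomas, the receptor gene called higher in both comparisons of tumor types was *Chrnb1*, the beta1 subunit of the muscle receptor. It was at 9.79, 10.5, 17.6 and 21.1 CPM in *EμMyc* and 9.96, 5.09 and 22.1 CPM in *EμMyc/Casp2*-/- tumors, and at 0.10 to 1.27 CPM in the neuroblastomas, without overlap. The log2 fold changes were 4.03 ± 0.57 and 4.18 ± 0.63 (SE; edgeR quasi-likelihood adjusted p = 4.68e-05 and 6.10e-05). They are a description, since *Chrnb1* passed the filter through the lymphomas alone. Its partners in muscle were near or at 0 in lymphomas: *Chrna1* and *Chrng* had at most 1 read in any lymphoma, *Chrnd* was at most 0.20 CPM and *Chrne* at most 0.52 CPM. *Chrm4*, the M4 muscarinic receptor that inhibits adenylate cyclase, was the other gene called higher, in *EμMyc/Casp2*-/- against *Th-MYCN/Casp2*-/- tumors. It was at 0.44, 0.94, 0.31 and 28.9 CPM in *EμMyc* and 1.37, 0.67 and 40.1 CPM in *EμMyc/Casp2*-/- tumors, high in tumors 835 and 245 and at most 1.37 CPM in the other 5, near the neuroblastomas (0.24 to 1.21 CPM). The call was lost without tumor 245, where the log2 fold change went from 4.52 to 0.67 (edgeR quasi-likelihood adjusted p = 0.721), and also with sex as a covariate (log2 fold change 4.27, edgeR quasi-likelihood adjusted p = 0.0855). *Chrna9*, known from cochlear hair cells, was at 0.17, 0, 0.79 and 0.42 CPM and at 7.03, 0.42 and 1.51 CPM in lymphomas and at most 0.12 CPM in neuroblastomas, where no tumor reached 3 reads. *Chrna2*, *Chrne* and *Grm6* were the other genes that reached 3 reads in a lymphoma and in no neuroblastoma. Per kilobase, the order in lymphomas was *Chrm4* (7.21 ± 11.6), *Chrnb1* (6.38 ± 3.02), *Grik5* (3.31 ± 1.57), *Gabbr1* (1.96 ± 2.37), *Grin3b* (1.82 ± 1.20) and *Chrnb2* (0.99 ± 0.44 CPM per kb, SD, n = 7), and the means of neighbours differed by less than the larger of their SDs, apart from *Chrnb1* and *Grik5*. The first rank of *Chrm4* depends on its annotated exon length of 1440 bases. That annotation begins at 91927249 on chromosome 2, whereas the RefSeq upstream window ends at 91922188, so its value per kilobase may be too high. By mean CPM *Chrnb1* was above *Chrm4* in lymphomas, at 13.7 against 10.4.

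The second question was whether loss of *Casp2* changed receptor genes within neuroblastomas. With the *Casp2*-/- neuroblastomas set against those with intact *Casp2*, no receptor gene was called by the edgeR quasi-likelihood test, where 5 of 14880 genes (0.0336%) were called. At an unadjusted p under 0.05 there were 9 of the 37 receptor genes tested and 1008 of 14880 genes. The edgeR likelihood ratio test called 1 receptor gene, *Gabra4*, with 0.813% of all genes called. DESeq2 called 1, *Gabra3*, with 116 of 14880 genes called. The groups did not overlap for *Gabra4* and *Gria3*, 2 of the 37, beside 6.62% of all genes. The median log2 fold change of the 37 genes was 0.27, beside 0.00 over all genes.

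*Gabra4*, the alpha4 GABA-A subunit found with delta subunits outside synapses, was at 4.82, 4.57, 4.84 and 4.07 CPM in *Th-MYCN* tumors and at 0.07, 0, 0.96 and 0 CPM in *Th-MYCN/Casp2*-/- tumors. The *Th-MYCN* tumors lay close together and every *Casp2*-/- tumor lay below them, with tumor 176 the highest of these. The group totals were 292 and 11 reads, and the log2 fold change was -4.21 ± 1.08 (SE). It passed the edgeR likelihood ratio test (adjusted p = 0.0491) and missed by the edgeR quasi-likelihood test (adjusted p = 0.281) and by DESeq2 (adjusted p = 0.124). The call also depended on single tumors: in 15 refits of the edgeR likelihood ratio test that each left out 1 tumor of the study, it was kept in 6, with adjusted p from 9.18e-11 without tumor 176 to 0.236, and the log2 fold change stayed between -7.08 and -3.72. The lymphomas held at most 0.42 CPM. Markers of other kinds separated the same tumors. The 4 endothelial markers summed to 65.5, 45.6, 41.6 and 45.9 CPM in *Th-MYCN* and 21.7, 17.6, 15.7 and 28.0 CPM in *Th-MYCN/Casp2*-/- tumors, without overlap, and *Pecam1*, with the highest CPM of the 4 in most of these tumors, was at 17.9 to 27.0 against 8.29 to 12.7 CPM. The sympathetic marker *Th* was at 313, 1074, 1174 and 1446 CPM against 227, 135, 75.8 and 246 CPM. Their part in the *Gabra4* values was not tested.

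*Gabra3* and *Grm5* had the next smallest p-values and a different pattern, since they were high in the same pair of *Th-MYCN* tumors. *Gabra3*, another alpha subunit, was at 0.37, 12.6, 0.12 and 21.8 CPM against 0.07, 0.45, 0.96 and 0.73 CPM in *Th-MYCN/Casp2*-/- tumors. *Grm5* was at 0.24, 4.43, 1.04 and 3.39 CPM against 0, 0.32, 0 and 0 CPM. Tumors 235 and 391 were above all others for both genes, and the genotypes overlapped for both. The log2 fold changes were -3.98 ± 1.09 and -4.51 ± 1.40 (SE), with adjusted p = 0.339 and 0.344 by the edgeR quasi-likelihood test and 0.0575 and 0.0885 by the edgeR likelihood ratio test. DESeq2 gave adjusted p = 0.0255 for *Gabra3*.

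*Gria1* and *Grik1* had the next smallest unadjusted p-values and were on the opposite side. *Gria1* was at 10.7, 21.3, 30.5 and 20.8 CPM in *Th-MYCN* and 37.6, 61.9, 28.3 and 39.1 CPM in *Th-MYCN/Casp2*-/- tumors, overlapping at tumors 332 and 176 (log2 fold change 1.00 ± 0.37, SE, edgeR quasi-likelihood adjusted p = 0.570). *Grik1* was at 8.97, 3.48, 5.02 and 2.90 CPM against 12.7, 8.99, 26.8 and 7.31 CPM, overlapping at tumors 175 and 180 (log2 fold change 1.45 ± 0.57, SE, edgeR quasi-likelihood adjusted p = 0.623). As a share of AMPA transcripts per kilobase, *Gria1* was 9.89% ± 3.06 in *Th-MYCN* and 18.6% ± 3.82 in *Th-MYCN/Casp2*-/- tumors, and *Gria4* was 51.2% ± 5.25 and 37.5% ± 4.22 (SD, n = 4), and neither share overlapped between the genotypes. These shares are given as a description with no test. *Gria3* was at 0.49, 0.80, 2.02 and 1.30 CPM against 2.16, 2.12, 2.89 and 2.35 CPM, without overlap but with an edgeR quasi-likelihood adjusted p = 0.794.

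**Figure D4:**
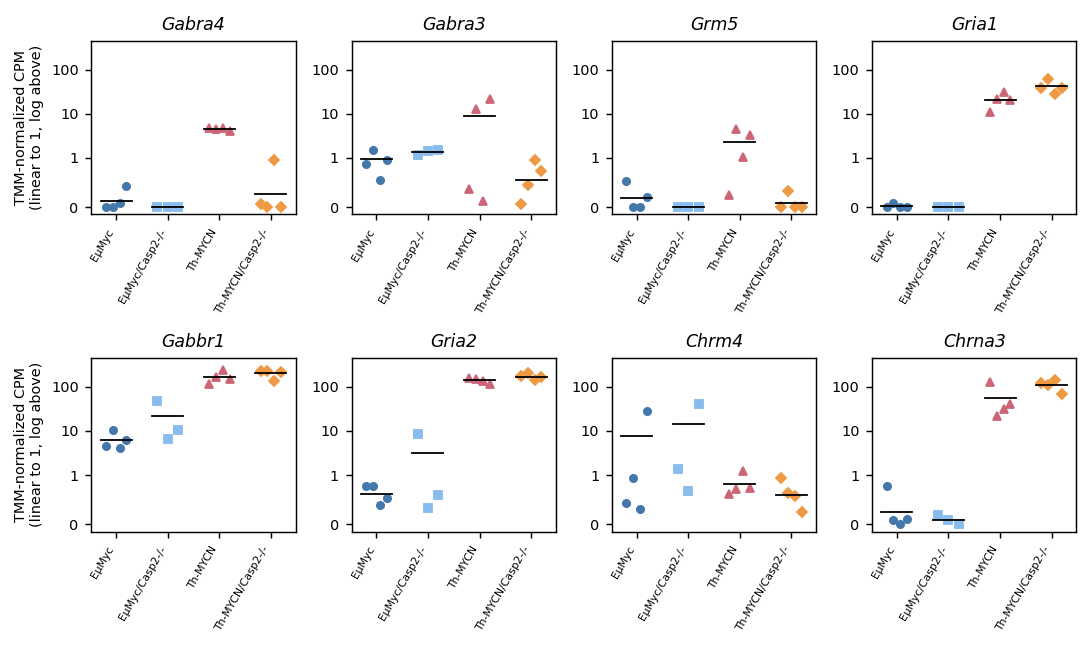
CPM of 8 receptor genes in the 15 tumors, with 1 point per tumor in its group, a bar at each group mean, and an axis that is linear to 1 and logarithmic above. *Gabra4* lies at 4.07 to 4.84 CPM in the 4 *Th-MYCN* tumors and below 1 in the other groups, and single tumors stand apart for *Gabra3*, *Gabbr1*, *Gria2* and *Chrm4*.

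In the lymphomas no receptor gene was called in *EμMyc/Casp2*-/- against *EμMyc* tumors by the edgeR quasi-likelihood test, where 21 of 14880 genes (0.141%) were called. An unadjusted p under 0.05 was reached by 2 of the 37 receptor genes and 1269 of all genes. The edgeR likelihood ratio test and DESeq2 each called 1 receptor gene, *Gabbr1*. Over all genes, the likelihood ratio test called 1.44% and DESeq2 called 203 genes. Groups without overlap were found for *Grin2d* alone among the 37 genes, beside 3.7% of all genes. *Gabbr1* was at 4.55, 10.4, 4.01 and 6.37 CPM in *EμMyc* and 48.0, 6.59 and 10.8 CPM in *EμMyc/Casp2*-/- tumors, with tumor 215 above all lymphomas and the other 2 near the range of the *EμMyc* tumors. The log2 fold change was 1.74 ± 0.53 (SE), with adjusted p = 0.291 by the edgeR quasi-likelihood test, 0.0488 by the edgeR likelihood ratio test and 0.0433 by DESeq2. Without tumor 215 it was 0.47 (edgeR likelihood ratio adjusted p = 1), and the call was kept in 3 of 15 refits that each left out 1 tumor. *Gria2* (log2 fold change 2.04 ± 0.79, SE, edgeR quasi-likelihood adjusted p = 0.449) also owed its direction to tumor 215, and without it the log2 fold change was -0.41. *Grin2d*, *Glrb* and *Grik1* completed the 5 smallest p-values. *Grin2d* was at 1.75, 0.94, 0.87 and 0.53 CPM against 0, 0.42 and 0.30 CPM (edgeR quasi-likelihood adjusted p = 0.699), *Glrb* had 13 reads against 2, and *Grik1* 3 reads against 0.

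Tumor 215 stood apart in other respects. It was the shallowest library, the only lymphoma from a female mouse in the sample list of the study, and the lymphoma with the most T cell marker transcripts: 6 T cell markers summed to 905.5 CPM there and to 55.6 to 210 CPM in the other 6 lymphomas, led by *Cd8a* at 362 CPM against at most 9.84. Its macrophage markers summed to 1536 CPM, against 257 to 965 CPM in the others, through *Lyz2*, *C1qa* and *C1qb* (872, 272 and 248 CPM). The other macrophage markers were not highest there. *Cd68* was at 74.2 CPM against 122 in tumor 743b, *Csf1r* at 51.9 against 79.2 in tumor 239, and *Emr1* at 19.5 against 38.3 in tumor 743b. *Gabbr1*, *Gria2*, *Chrna9* and *Grm6* each had their highest lymphoma value in this tumor, as had the acetylcholine-degrading enzyme gene *Ache* (16.01 CPM against at most 3.93). The part of these cells in those values was not tested.

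The interaction of genotype and tumor type, which asks whether loss of *Casp2* went with different changes in lymphomas and neuroblastomas, called no receptor gene by the edgeR quasi-likelihood test, the edgeR likelihood ratio test or DESeq2, where the quasi-likelihood test called 0.0538% of all genes. Over all genes, the likelihood ratio test called 136 and DESeq2 123. At an unadjusted p under 0.05 the quasi-likelihood test had 4 of the 37 genes and 1127 of 14880 genes. The smallest p-values were those of *Gabra3*, *Grin2d*, *Grm7*, *Grik1* and *Gabbr1*, with edgeR quasi-likelihood adjusted p from 0.518 to 0.669. *Grm7* was at 1.40, 1.38, 2.19 and 0.74 CPM in *Th-MYCN* and 8.35, 7.64, 1.06 and 5.68 CPM in *Th-MYCN/Casp2*-/- tumors, with tumor 176 among the *Th-MYCN* values, and had 5 reads in the *EμMyc* tumors and 0 in *EμMyc/Casp2*-/- tumors.

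The neuroblastomas with the latest onset, tumors 175 and 176, stood together in some genes and apart in others. They had the lowest *Grin1* and *Gabbr2* values and, with 118 and 144, the highest *Chrna3* and *Chrnb4* values of the 8 neuroblastomas. The vesicular acetylcholine transporter *Slc18a3* was at 38.1 and 106 CPM and the acetylcholine-synthesizing enzyme *Chat* at 5.49 and 14.4 CPM in these tumors, against at most 11.2 and 0.72 CPM in the other 6. *Phox2a*, a determinant of autonomic neurons, was also highest in them, at 422 and 607 CPM against 70.8 to 226 CPM. They differed in other receptor genes, with *Chrna7* at 17.7 CPM in tumor 175 and 1.25 CPM in tumor 176, *Grik2* at 24.5 and 5.69 CPM, *Gabra4* at 4.82 and 0.96 CPM, *Grid1* at 5.49 and 17.3 CPM, and *Grik3* at 0.85 and 8.09 CPM. This pair was noticed after the values were seen and no test was made of it.

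The 72 genes of 8 lists that make, move, remove, anchor or assist these transmitters and receptors were compared between tumor types as well. They met the same filter on low counts, and some passed it through the neuroblastomas alone, such as *Slc17a6* and *Cacng5* with 0 CPM in every lymphoma. Such genes were bound to differ, so the counts of the lists between tumor types are given as a description. Of the 56 tested, 42 were called lower and 3 higher in *EμMyc* than in *Th-MYCN* tumors, and 39 lower and 3 higher in *EμMyc/Casp2*-/- than in *Th-MYCN/Casp2*-/- tumors (edgeR quasi-likelihood test, with the shares of all genes given above). The medians of the tested genes were -4.81 and -4.31 on the log2 scale. The lists had been drawn up with earlier results of these data known.

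For GABA and glycine synthesis, breakdown and transport, 4 of 10 genes were called lower in *EμMyc* than in *Th-MYCN* tumors. *Gad2*, the GABA-synthesizing enzyme of nerve endings, was at 126 to 296 CPM in neuroblastomas and at most 0.39 CPM in lymphomas, and its relative *Gad1* was at most 0.40 CPM in any tumor. *Abat*, which breaks GABA down, was at 63.0 to 189 CPM against at most 2.93 CPM, whereas the vesicular GABA transporter *Slc32a1* was at most 0.53 CPM in any tumor. For vesicular transport and synthesis of glutamate 1 of 6 genes was called lower, *Slc17a6*, a vesicular glutamate transporter. It was at 3.66, 0, 0 and 7.65 CPM in *Th-MYCN* tumors and at 0 in every lymphoma, so the groups overlapped at 0. In *Th-MYCN/Casp2*-/- tumors it was at 1.73, 31.5, 97.7 and 0.24 CPM. For glutamate uptake 4 of 6 genes were called lower, among them *Slc1a1* (7.20 to 26.9 CPM against at most 2.22) and *Slc1a4* (51.7 to 78.9 CPM against 6.68 to 37.1). For acetylcholine synthesis, breakdown and transport 2 of 5 were called lower, *Slc18a3* and *Bche*.

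Of the auxiliary subunits of glutamate receptors, 11 of 14 were called lower in *EμMyc* than in *Th-MYCN* tumors. *Shisa7* was at 108 to 209 CPM in neuroblastomas and at most 1.14 CPM in lymphomas, *Cacng4* at 39.0 to 77.8 against at most 0.20 CPM, and *Cnih2* at 41.8 to 117 against at most 2.65 CPM. *Cacng3*, a trafficking subunit of AMPA receptors, was the gene of the lists that stood out by genotype in neuroblastomas, at 52.2, 47.3, 39.3 and 20.4 CPM in *Th-MYCN* against 5.47, 3.98, 6.17 and 12.4 CPM in *Th-MYCN/Casp2*-/- tumors, without overlap. Its log2 fold change was -2.51 ± 0.42 (SE), with adjusted p = 0.130 by the edgeR quasi-likelihood test and 0.000351 by the edgeR likelihood ratio test. The endothelial marker sum and *Th* separated the genotypes as well, as given beside *Gabra4*, and their part in the *Cacng3* values was not tested. No gene of the 8 lists was called by genotype or interaction under the quasi-likelihood test. Under the likelihood ratio test *Cacng3* in neuroblastomas and *Slc1a2*, higher in *EμMyc/Casp2*-/- lymphomas through 4.42 CPM in tumor 239 (at most 0.40 in the others), were the only calls of the lists by genotype.

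Among scaffolds of glutamate receptors 11 of 14 were called lower and 1 higher. *Dlg4*, which encodes PSD-95, was at 126.5 to 284 CPM in neuroblastomas against 1.73 to 7.61 CPM in lymphomas, and *Shank1* at 73.8 to 203 against 0.34 to 2.87 CPM. *Dlg1* was the gene called higher, at 72.8 to 132 CPM in lymphomas and 14.4 to 35.8 CPM in neuroblastomas. Of 8 scaffolds and auxiliary subunits of GABA and glycine receptors, 3 were called lower and *Kctd12* higher. *Lhfpl4*, which brings GABA-A receptors to synapses, was at 157 to 231 CPM against at most 1.31 CPM, and *Nlgn2* at 275 to 356 against 31.4 to 92.3 CPM. Of 9 chaperones, modulators and clustering factors of nicotinic receptors, 6 were called lower and *Lynx1* higher. The chaperone genes *Ric3* and *Tmem35* were at 55.7 to 82.3 and 63.3 to 110 CPM in neuroblastomas against at most 0.79 and 3.71 CPM in lymphomas, and *Agrn*, encoding agrin, at 280 to 661 against 6.37 to 28.5 CPM.

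Markers of other cells were measured beside the receptor genes. Skeletal muscle markers (6 genes) summed to 174 CPM in *Th-MYCN* tumor 175 and 314 CPM in *Th-MYCN/Casp2*-/- tumor 118, against 2.70 to 5.71 CPM in the other neuroblastomas and 14.6 to 42.0 CPM in lymphomas. Of the muscle receptor genes in tumors 175 and 118, *Chrna1* was at 0.92 and 0.50 CPM and *Chrnb1* at 0.92 and 1.15 CPM. *Chrnd*, *Chrne* and *Chrng* were each at most 0.18 CPM there. The *Chrna1* value of tumor 175 was the highest of the 15 tumors, and tumor 144, at 0.64 CPM, lay above tumor 118. Schwann cell markers summed to at least 34.4 CPM in every neuroblastoma and 1.76 to 17.9 CPM in lymphomas, and central neuron and glia markers to 55.9 to 146 and 8.17 to 47.7 CPM. *Mbp* had the highest CPM of the latter in neuroblastomas (48.8 to 98.5 CPM), and *Aqp4* was at 0 in every tumor but 144, where it was at 0.06 CPM. Sensory neuron markers summed to 1.34 to 9.44 and 0.33 to 5.27 CPM, macrophage markers to 326 to 816 and 257 to 1536 CPM, endothelial markers to 15.7 to 65.5 and 113 to 220.5 CPM, fibroblast markers to 191 to 561 and 352 to 1387 CPM, and T cell markers to 5.04 to 11.1 CPM in neuroblastomas. The part of these cells in the receptor values was not tested.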

How the data were processed

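RNA from 15 tumors was sequenced by the authors and aligned with STAR to mm10/GRCm38, per the labels. The deposited files hold raw read counts of each gene, on both strands together and on each. The second-strand count was used, as in the study. First-strand totals were 1.03 to 1.05 times second-strand totals, so the libraries look unstranded and this count holds part of the reads of each gene. Rows that name no gene held 66.4% to 71.8% of the reads and were left out. The 14880 genes above 1 CPM in 3 or more tumors were fitted in edgeR 4.0.16 (R 4.3.3) with TMM factors and a mean for each of 4 groups. Quasi-likelihood tests with Benjamini-Hochberg adjustment gave the main calls (adjusted p under 0.05, over 2-fold). The likelihood ratio test, DESeq2 1.42.0, other scalings, filters, either-strand counts, sex as a covariate and leaving out each tumor were alternatives. The quasi-likelihood and likelihood ratio tests were tried on simulated data for *Th-MYCN/Casp2*-/- against *Th-MYCN* and for *EμMyc* against *Th-MYCN* tumors. DESeq2 and the other comparisons were not tried in this way. Exon lengths and positions came from GENCODE M21, and promoter windows from RefSeq, which matched 52 of 73 genes.

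Named genes were the 12 highest per tumor type, up to 8 called per direction between tumor types (non-overlapping first), those called or with the 5 smallest p-values by genotype or interaction, and their cluster neighbours. Other genes named were chosen after their values were seen. Members and lists were chosen with earlier results of these data known. The tumors came from different mice. Some genes are not reported here and are counted only in totals. A further *EμMyc/Casp2*-/- tumor was not analysed here.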

Additional observations from a re-analysis of the deposited data

Results flagged for a closer look

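Among 49 combinations of a named receptor gene and a group of 4 tumors with at least 10 reads in 1 tumor, 4 had a single tumor far from the other 3 by Dixon's test, which flags about 1 in 20 groups by chance.

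*Chrm4* in *EμMyc* tumor 835 was at 28.9 CPM, against at most 0.94 in the other 3 tumors. *Gria4* in *Th-MYCN* tumor 175 was at 85.9 CPM, below the next value of 122. *Gabbr1* in *Th-MYCN/Casp2*-/- tumor 176 was at 136 CPM, below the next value of 215. *Gabra4* in that tumor was at 0.96 CPM, where the next value was 0.07. Of the 4, 3 belong to tumors 175 and 176, the neuroblastomas with the latest onset.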

How the results depend on the processing

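Between tumor types the receptor calls changed little: leaving out each tumor in turn gave 28 to 32 called lower and 1 to 2 higher in *EμMyc* against *Th-MYCN* tumors (6491 to 7023 of all genes), and 28 to 30 lower and 1 to 2 higher between the *Casp2*-/- groups (6555 to 6959). The number called higher was 2 by the likelihood ratio test in the first. In the second, where the main test called 2, it was 1 by DESeq2, with the filter of over 1 CPM in at least 7 tumors, with sex as a covariate and with only the groups compared, and 4 with no filter. By genotype, the likelihood ratio test and DESeq2 each called 1 receptor gene lower in neuroblastomas and 1 higher in lymphomas, where the quasi-likelihood test called 0. Over all genes, the neuroblastoma count of 5 became 121 by the likelihood ratio test, 116 by DESeq2 and 3 with the filter at 7 tumors, and was 2 to 25 without single tumors. The lymphoma count of 21 became 215, 203, 9 with sex and 1 with only the groups compared, and was 10 to 163 without single tumors. The interaction count of 8 became 136, 123, 4 with either-strand counts and 5 with sex, and was 4 to 28 without single tumors. Leaving out single tumors gave 0 receptor genes by genotype or interaction in the edgeR quasi-likelihood test. The cause was not tested.

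The median number of receptor genes detected was 7 in lymphomas and 34 in neuroblastomas with 10 reads required in place of 3, and 18 and 51.5 with either-strand counts. Of 729 refits of 30 named fold changes, 728 kept their direction. The exception was *Gria2* in lymphomas without *EμMyc/Casp2*-/- tumor 215, at -0.41, and its range over refits without single tumors reached 2.71. The *Chrm4* call between *Casp2*-/- groups was lost with sex as a covariate (log2 fold change 4.27, edgeR quasi-likelihood adjusted p = 0.0855) and without tumor 245. DESeq2 gave *Chrm4* no adjusted p there, and with the filter at 7 tumors or only the groups compared it did not pass the filter and was not tested. Refits of the likelihood ratio test without single tumors were chosen after seeing the data. No paired analysis was possible because the labels give the groups no shared replicate numbers. Below 3 reads per library, absence and low expression cannot be told apart.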
